A study of Rattus norvegicus with 31 samples.

Results

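The livers of 4 rats on a high-fat diet (H-group) were compared with the livers of 9 rats on lower-fat diets, taken as 1 group, over 31042 probe sets of an expression array. The 9 rats were 5 of a low-fat group (L-group, rats L1 to L5) and 4 of a moderate-fat group (M-group, rats M6, M8, M9 and M10), and the H-group held rats H12, H13, H15 and H16. These 13 liver arrays are all those of the liver among the 31 arrays of the series, and they were chosen by their diet labels alone. Pooling L and M asks what sets a diet with 45% of its energy from fat apart from diets with 15 or 20%.

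The animals were male Wistar rats, an outbred strain, 3 weeks old when they arrived and given chow before the diets. By energy, the L-diet held 65% carbohydrate and 15% fat, the M-diet 60 and 20%, and the H-diet 35 and 45%, while protein was the same in each. Soybean oil made up the change in fat and lard was constant. L rats ate freely, and M and H rats were given the same energy as L rats, for 9 weeks. Food was removed 17 h before dissection early in the light phase, so every liver here is a fasted liver. The study left out rats M7 and H11, and no array of them was used here. Each value is 1 piece of whole liver on 1 array, and in such bulk tissue fewer cells of a type and less RNA per cell cannot be told apart. The 7 measured hepatocyte products, among them albumin and transthyretin, had a mean log2 level of 13.48 to 13.53 in the pooled rats and 13.46 to 13.50 in the H rats, near the top of the scale (the highest liver value was 14.3).

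The liver makes fatty acids from surplus carbohydrate, desaturates and packs them for export, makes cholesterol and turns part of it into bile acids. Dietary fat is known to dampen fatty acid synthesis in the liver, and polyunsaturated fat in particular lowers the desaturase that makes monounsaturated fatty acids. Many of these genes also follow the liver clock and the pulses of growth hormone, which differ between male and female rats.

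The limma fit called 8 probe sets that differed between the H-group and the pooled rats at an adjusted p under 0.05, 0.0258% of those tested, and the H-group had the higher mean in 6 (0.0193%) and the lower mean in 2 (0.00644%). They belong to *Adam22* (2 probe sets), *Fabp2*, *Tmem150c*, *Slc39a4* and *Smim1*, and 2 of them, 1391428_at and 1377795_at, have no gene symbol in the annotation used here. All 8 were without overlap between the 4 H rats and the 9 pooled rats, and so were 0.722% of all probe sets. The 8 were picked by their p, which favours such separation. The pooled rats L1, L2 and M6, stood apart from the rest in their clock genes, as given further on. Without these 3 rats, *Slc39a4*, *Fabp2* and 1391428_at passed the same test, each with an adjusted p = 0.0166 by limma, and the other 5 had adjusted p from 0.0556 to 0.191 with their direction kept.

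*Slc39a4*, the zinc importer ZIP4 of the plasma membrane, fell in the H-group. The 9 pooled rats had log2 values from 7.27 to 7.58 with a median of 7.50, and the H rats had 6.82, 6.38, 6.78 and 6.74. Every H liver was below every pooled liver, and rat H13 was the lowest. The means were 7.46 ± 0.11 (SD, n = 9) and 6.68 ± 0.20 (SD, n = 4), a 1.72-fold lower level (log2 difference -0.78, standard error 0.08, limma adjusted p = 0.00161). The difference was -0.80 against the L-group and -0.76 against the M-group, which share the same H rats. It passed the test whichever of the 13 rats was left out, with a highest adjusted p of 0.0103.

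Of 15 measured genes for zinc, iron and copper handling, *Slc39a4* was the single member called. Among all 14217 genes with a probe set, 3 were called higher and 2 lower. The metallothionein *Mt2A*, a zinc-binding protein, had 9.92 to 11.21 in the pooled rats and 11.50, 11.95, 11.10 and 11.12 in the H rats, with overlap through rat M9 at 11.21. Its log2 difference was 0.73 (standard error 0.22, limma adjusted p = 0.338), and that of *Mt1* was 0.32 (standard error 0.14). The median difference of the 15 genes was 0.01, beside 0.00 over the 14217 genes with a probe set.

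*Fabp2*, the fatty acid-binding protein known from the intestine, rose in the H-group. It had 5.13 to 6.09 in the pooled rats with a median of 5.51, and 6.75, 6.76, 6.26 and 6.34 in the H rats. Rat M6 was the highest pooled rat and still lay under every H rat. The means were 5.51 ± 0.29 (SD, n = 9) and 6.53 ± 0.27 (SD, n = 4), a 2.02-fold higher level (log2 difference 1.02, standard error 0.15, limma adjusted p = 0.0388). The call is a narrow one. It was kept in 3 of the 13 fits that left out 1 rat, and the adjusted p rose to 0.125 at most when one of L1 to L5, M8, M10, H12, H13 or H16 was left out.

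The liver's own carrier *Fabp1* had 13.52 ± 0.05 (SD, n = 9) against 13.45 ± 0.04 (SD, n = 4), and *Fabp5* 7.26 ± 0.14 (SD, n = 9) against 6.85 ± 0.25 (SD, n = 4), neither past the adjusted threshold. *Acsl3*, which activates long-chain fatty acids, had 4.93 to 5.33 in the pooled rats and 5.70, 5.54, 5.71 and 5.28 in the H rats (log2 difference 0.39, standard error 0.09, limma adjusted p = 0.160). Fatty acid uptake and activation had 4 of 15 genes with a higher mean in the H-group and 11 with a lower one, so *Fabp2* did not move with its list.

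*Adam22*, a catalytically inactive ADAM protein known from synapses, rose with both of its called probe sets. The brighter one had 2.69 to 4.14 in the pooled rats with a median of 3.38, and 4.86, 5.24, 4.95 and 4.97 in the H rats. The log2 difference was 1.56 (standard error 0.21, limma adjusted p = 0.0147), and the call was lost without rat H13 or H16 (highest adjusted p 0.0748). The second had 2.65 to 2.81 in the pooled rats and 3.15, 3.05, 2.95 and 3.24 in the H rats, a difference of 0.37 (limma adjusted p = 0.0478), kept in 2 of the 13 fits without 1 rat. The remaining probe set of the gene had a difference of 0.01. The pooled values of all 3 lay under the array medians of 4.67 to 4.7, where background makes up more of the signal and folds are compressed.

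*Tmem150c*, a transmembrane protein linked to mechanosensitive currents, rose from 6.07 ± 0.17 (SD, n = 9) to 6.75 ± 0.17 (SD, n = 4). The pooled rats had 5.73 to 6.31 and the H rats 6.74, 6.53, 6.93 and 6.81 (log2 difference 0.68, standard error 0.10, limma adjusted p = 0.0221). Leaving out L1, L4, L5, M10, H12, H15 or H16 ended this call, with a highest adjusted p of 0.0968. *Smim1*, a small membrane protein of the red cell surface, fell from 6.38 ± 0.14 (SD, n = 9) to 5.81 ± 0.10 (SD, n = 4). The pooled rats had 6.19 to 6.60 and the H rats 5.69, 5.85, 5.93 and 5.78, without overlap (log2 difference -0.57, standard error 0.07, limma adjusted p = 0.0147). The call was lost without H12 or H16, at an adjusted p of 0.0587 at most. The median difference of 6 other red cell genes was -0.03, and 0 of them had an unadjusted p under 0.05. For both *Tmem150c* and *Smim1* the M mean lay between those of L and H. The H differences were 0.78 against L and 0.56 against M for *Tmem150c*, and -0.64 and -0.48 for *Smim1*. Fitted in 3 groups by limma, both passed against L (adjusted p = 0.00779 and 0.00672) but not against M (0.192 and 0.15).

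Probe set 1391428_at had 3.66 to 4.0 in the pooled rats and 4.76, 4.7, 4.47 and 4.43 in the H rats, a log2 difference of 0.74 (standard error 0.07, limma adjusted p = 0.00161) that passed in all 13 fits without 1 rat. Probe set 1377795_at had 3.03 to 3.51 and 4.12, 4.83, 3.88 and 4.16, a difference of 1.04 (standard error 0.14, limma adjusted p = 0.0149), lost without H16 at 0.0564. Each of the 8 probe sets had a two-sided exact permutation p = 0.0014, the smallest that 715 choices of 4 of 13 rats can give. That p was shared by 133 of the 31042 probe sets.

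**Figure D1:**
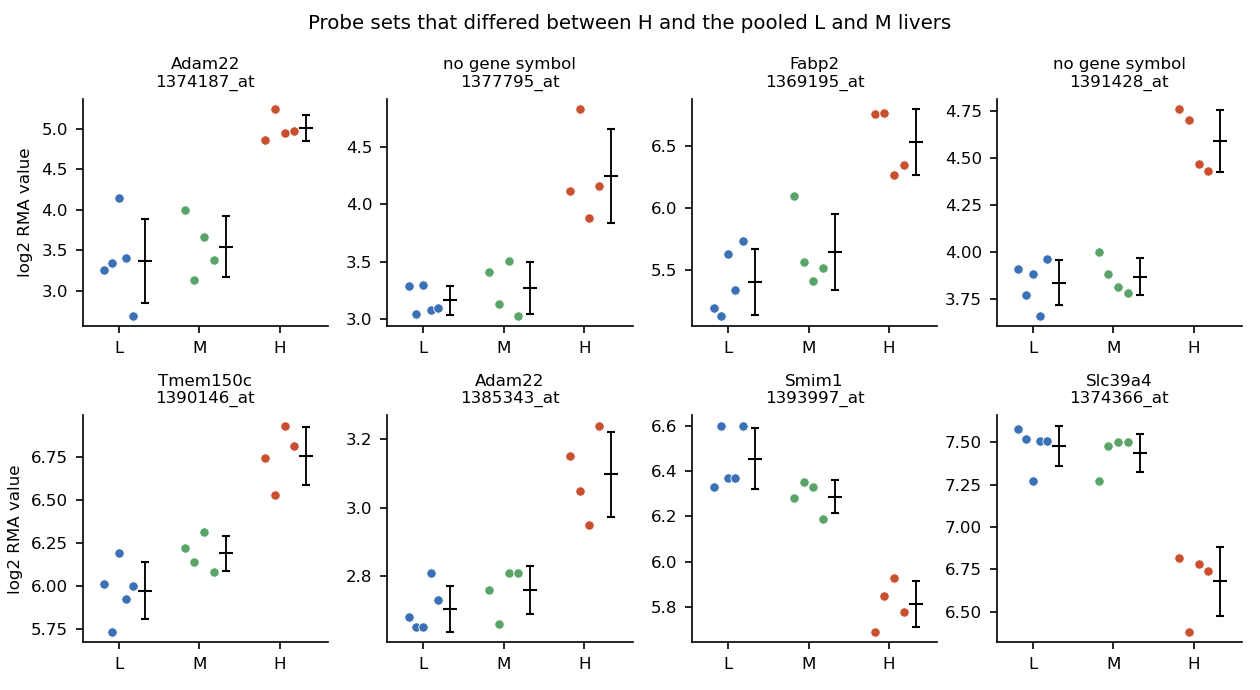
Log2 RMA values of the 8 probe sets that differed, one panel each, with 1 point per rat in the L- (5), M- (4) and H-group (4), the bar and whiskers giving mean and SD. The H points lie clear of the L and M points in every panel, downward for *Smim1* and *Slc39a4* (H rats at 6.38 to 6.82 against 7.27 to 7.58).

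The 2 pooled diets were compared in the named genes. None of the 48 probe sets chosen by the naming rule, 29 higher and 19 lower in the H-group, differed between M and L at a limma adjusted p under 0.05, and 4 had an unadjusted p under 0.05. The median size of the M minus L difference was 0.13 and the largest was 1.29 (*Lox*). All 48 had the same sign against L and against M. The rule picked these probe sets by their p against the pooled rats, which favours a small spread among those rats and 1 sign against both diets, so these counts are a description and support nothing. Fitted in 3 groups, H against L called 11 probe sets (0.0354%) and H against M called 4 (0.0129%), both with the same 4 H rats, and M against L called 2 (0.00644%). Of the probe sets called against the pooled rats, *Slc39a4* and 1391428_at passed against M in that limma fit (adjusted p = 0.0253 and 0.0208). The others had adjusted p from 0.15 to 0.31 against M.

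The genes of cholesterol synthesis lay on the higher side. All 17 measured genes had a higher mean in the H-group, where 52.3% of all genes did, 8 had an unadjusted p under 0.05 (5.3% of all genes on the higher side), 0 passed the adjusted threshold, and the median log2 difference was 0.33. *Sqle*, squalene epoxidase, a rate-setting step, had 3.71 to 4.63 in the pooled rats with a median of 4.06, and 5.21, 5.58, 5.73 and 4.5 in the H rats. Rats L3 and H16 overlapped. The log2 difference was 1.16 (standard error 0.20, limma adjusted p = 0.0861). *Acat2*, which joins acetyl-CoA units at the start of the pathway, had 4.61 to 5.21 in the pooled rats and 5.33, 5.63, 5.53 and 5.32 in the H rats, without overlap (0.54, standard error 0.10, limma adjusted p = 0.0861).

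Further members with an unadjusted p under 0.05 were *Idi1* (0.74), *Msmo1* (0.64), *Hsd17b7* (0.50), *Tm7sf2* (0.46), *Fdps* (0.44) and *Lss* (0.33), from isoprenoid building through cyclization to the late sterol steps. The 9 other members lay between 0.03 (*Ebp*) and 0.33 (*Cyp51*). The mean deviation of the 17 genes from their average over the 13 livers was 0.15, 0.40, 0.38 and 0.01 in H12, H13, H15 and H16 and -0.32 to 0.11 in the pooled rats, so H16 lay among the pooled rats. Without L1, L2 and M6 the median was 0.22, and leaving out single rats gave 0.23 (without H13) to 0.42 (without H16).

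*Srebf2*, the transcription factor of sterol synthesis, had 6.31 ± 0.08 (SD, n = 9) against 6.53 ± 0.22 (SD, n = 4), the higher mean resting on H13 and H15 at 6.73 and 6.71, while H12 and H16 had 6.38 and 6.30. *Srebf1*, which drives fatty acid synthesis genes, had 6.97 to 7.94 in the pooled rats and 8.29, 7.71, 8.34 and 7.92 in the H rats (log2 difference 0.59, standard error 0.17, limma adjusted p = 0.311). A second *Srebf1* probe set had 0.36. The sterol-sensing partners *Insig1* and *Insig2* both had a difference of -0.06. A sterol regulatory element in 1 strict form, TCACNCCAC read on both strands, was in 0 of the 14 members of cholesterol synthesis with a RefSeq promoter window (GRCr8, 250 bases before the start and 50 from it) and in 1.13% of all 27457 windows. At that share 0 of 14 is the likely outcome for any genes, so the search cannot tell whether these genes carry such elements.

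*Abcg5* and *Abcg8* encode the 2 subunits of the transporter that sends cholesterol and plant sterols into bile. *Abcg5* had 6.53 to 7.79 in the pooled rats with a median of 7.32, and 7.95, 8.44, 7.94 and 8.08 in the H rats, without overlap. *Abcg8* had 3.21 to 3.61 in the pooled rats, under the array medians, and 4.05, 4.30, 3.56 and 3.96 in the H rats, with H15 inside the pooled range. The log2 differences were 0.74 (standard error 0.18, limma adjusted p = 0.208) and 0.59 (standard error 0.11, limma adjusted p = 0.0861). The other 7 genes of sterol export and its nuclear receptor LXR, *Abca1*, *Abcg1* and *Nr1h3* among them, differed by -0.07 to 0.09.

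The 2 genes lie head to head, with 205 bases between their starts in RefSeq (GRCr8). Their promoter windows, chr6:15717686-15717985 on the + strand for *Abcg5* and chr6:15717681-15717980 on the - strand for *Abcg8*, share 295 of 300 bases. The window is shown because both genes had their higher mean in the H-group, and capitals mark the bases between the 2 starts.
Abcg5: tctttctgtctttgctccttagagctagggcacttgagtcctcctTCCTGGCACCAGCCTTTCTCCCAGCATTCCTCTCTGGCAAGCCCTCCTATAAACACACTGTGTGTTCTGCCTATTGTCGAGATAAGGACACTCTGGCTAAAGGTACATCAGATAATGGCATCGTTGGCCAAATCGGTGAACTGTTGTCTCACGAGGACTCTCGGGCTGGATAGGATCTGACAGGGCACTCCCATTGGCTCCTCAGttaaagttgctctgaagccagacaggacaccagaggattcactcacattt

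*Cyp7a1*, whose product sets the pace of bile acid formation from cholesterol, had the largest higher mean of all 14217 genes, with wide spread. The pooled rats had 4.40 to 8.75 with a median of 7.02, and the H rats 7.75, 8.58, 9.95 and 9.64. Rats L4 and M9 reached the level of the lower H rats. The log2 difference was 2.26 (standard error 0.66, limma adjusted p = 0.329), 2.71 against L and 1.68 against M, and 1.72 without L1, L2 and M6. *Acox2*, which shortens the side chain of bile acid precursors, had 10.77 to 11.27 against 11.25 to 11.34 (0.25, limma adjusted p = 0.401). *Amacr* (-0.38) and *Akr1d1* (-0.25) lay on the lower side, *Cyp8b1* at 0.05 and *Cyp27a1* at 0.08, so the 12 genes of the pathway did not move one way (8 higher, 4 lower, median 0.04). The bile acid and organic anion carrier *Slco1a1* had 10.44 ± 0.06 (SD, n = 9) against 10.29 ± 0.09 (SD, n = 4).

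**Figure D2:**
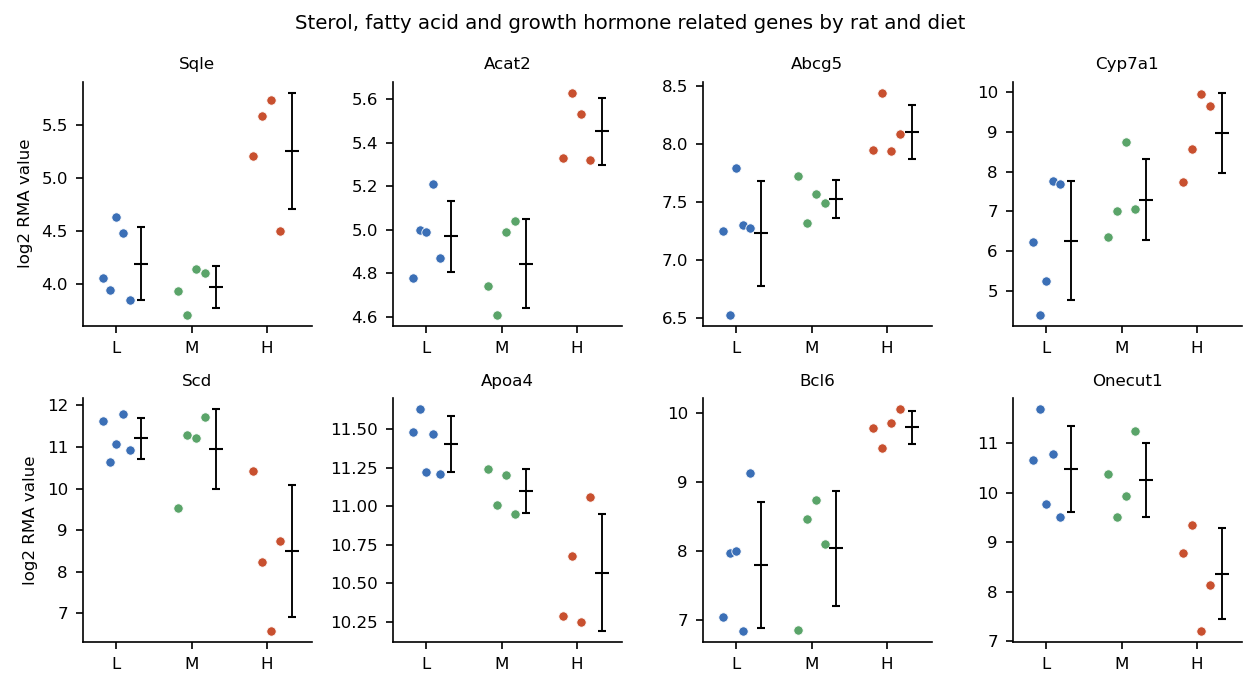
Log2 RMA values of 8 genes by rat and diet (L 5, M 4, H 4 rats), with mean and SD beside the points. *Acat2*, *Abcg5* and *Bcl6* are higher and *Onecut1* lower in every H rat, while *Sqle*, *Cyp7a1*, *Scd* and *Apoa4* have H rats within the pooled range, and none of the 8 passed the adjusted threshold.

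*Scd*, the stearoyl-CoA desaturase that makes oleate and palmitoleate, had the largest lower mean of all genes. The pooled rats had 9.54 to 11.80 with a median of 11.22, and the H rats 10.43, 8.23, 6.57 and 8.75. Rat H12 lay inside the pooled range, above M6 at 9.54, and the other 3 H rats were below every pooled rat. The log2 difference was -2.59 (standard error 0.54, limma adjusted p = 0.122), -2.71 against L and -2.45 against M.

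The rest of lipogenesis did not share that size. *Elovl6*, which elongates palmitate, had 4.22 to 4.87 in the pooled rats and 3.63, 4.17, 4.03 and 4.25 in the H rats (-0.40, standard error 0.13, limma adjusted p = 0.405), and its second probe set had -0.09. The pooled means of these probe sets, 4.42 and 3.25, lay under the array medians. *Acaca* had a difference of -0.20, *Acly* 0.15, *Fasn* 0.16, *Me1* -0.10 and *Thrsp* 0.34, and the median of the 13 genes of fatty acid synthesis was -0.01, with 6 higher and 7 lower. The desaturases of polyunsaturated fatty acids lay on the higher side, *Fads1* at 0.68 (pooled 9.12 to 10.64, H 10.65, 10.93, 10.75 and 10.26, limma adjusted p = 0.361) and *Fads2* at 0.40. *Scd* and *Fads1*, both desaturases, thus had differences of opposite sign.

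No difference in mitochondrial beta-oxidation was detectable in these fasted livers with 13 rats. Of its 17 genes 7 were higher and 10 lower, 0 had an unadjusted p under 0.05 in either direction, and the differences ran from -0.15 to 0.18, the latter for *Cpt1a*, the entry step, with 11.33 ± 0.17 (SD, n = 9) against 11.51 ± 0.15 (SD, n = 4). Among 17 peroxisomal genes and targets of PPARA, *Ehhadh* had -0.61 (unadjusted p = 0.0265 by limma), the median was -0.05, and *Acot1* had 1.56 with SDs of 1.25 and 2.25.

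Of 14 apolipoprotein and lipoprotein genes 5 were higher and 9 lower. *Apom*, a carrier of sphingosine-1-phosphate in HDL, had 11.55 to 11.65 in the pooled rats and 11.37, 11.39, 11.39 and 11.41 in the H rats, a small difference without overlap (-0.19, standard error 0.04, limma adjusted p = 0.0937). *Apoa4*, which accompanies triacylglycerol export, had 10.95 to 11.63 and 10.29, 10.68, 10.25 and 11.06, with H16 inside the pooled range (-0.70, standard error 0.15, limma adjusted p = 0.135). *Apoa1*, the main HDL protein, had 12.71 ± 0.12 (SD, n = 9) against 13.02 ± 0.19 (SD, n = 4). *Cideb*, which helps load lipid onto VLDL, had 8.71 ± 0.05 (SD, n = 9) against 8.91 ± 0.14 (SD, n = 4). *Apob*, the backbone of VLDL, differed by -0.04.

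Of 12 gluconeogenic genes 3 were higher and 9 lower in mean, 3 of the latter had an unadjusted p under 0.05 where 3.91% of all genes did, and 0 were called. The median was -0.11, and it was -0.05 without H12. The enzyme *Fbp1* had 12.55 ± 0.07 (SD, n = 9) against 12.38 ± 0.08 (SD, n = 4), *Pck1* a difference of -0.07, and the serine dehydratase *Sds* -0.62 with a pooled SD of 1.13. *Pdk1*, which switches off pyruvate dehydrogenase, had 7.76 to 8.12 in the pooled rats and 7.48, 7.47, 8.01 and 7.46 in the H rats, where H15 stood alone. The differences of its probe sets were -0.32 and -0.23. *Idh3a*, of the TCA cycle, had 5.14 ± 0.15 (SD, n = 9) against 5.44 ± 0.13 (SD, n = 4).

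The list of AMPK, the sensor of low energy, held 8 genes, which were AMPK subunits and also *Stk11* and *Sirt3*. Of these, 5 were higher and 3 lower in mean (median 0.08), where 52.3% of all genes were higher. Of the lower ones 2 had an unadjusted p under 0.05, beside 3.91% of all genes. The regulatory subunit *Prkab1* had 8.55 to 9.39 in the pooled rats and 8.34, 8.76, 8.33 and 8.52 in the H rats (-0.52, standard error 0.14, limma adjusted p = 0.295), and the catalytic subunit *Prkaa2* 9.15 to 9.67 against 9.01 to 9.35 (-0.33, limma adjusted p = 0.306). *Prkaa1*, the other catalytic subunit, had 0.08.

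*Slc25a30*, a mitochondrial carrier, had 10.35 to 11.77 in the pooled rats and 9.53, 9.85, 8.89 and 9.52 in the H rats, without overlap (log2 difference -1.33, standard error 0.22, limma adjusted p = 0.0861). A second probe set of the gene had -1.66, also without overlap. *Crem*, a cAMP-responsive transcription factor that also makes a repressor, was on the lower side with each of its 6 probe sets, from -0.36 to -0.68. The brightest had 9.92 to 10.54 in the pooled rats and 9.71, 9.78, 9.48 and 9.54 in the H rats (-0.57, standard error 0.11, limma adjusted p = 0.0937). *Pde4d*, which breaks cAMP down, had -0.64 (limma adjusted p = 0.339) with 1 probe set and -0.13 and -0.03 with the others, and 13 genes of cAMP signalling had a median of -0.04. *Nectin2*, a cell adhesion protein, lay lower (-0.35), and *Thnsl1* (0.63) and *Pter* (0.46) higher, each without overlap and with a limma adjusted p = 0.0861. The other probe sets of *Nectin2* had -0.11 and -0.08 and that of *Pter* -0.01, so for these genes the difference was seen in 1 probe set alone.

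*Bcl6* and *Onecut1*, transcription factors that follow growth hormone in the rat liver, had large differences of opposite sign. *Bcl6*, a repressor that STAT5 holds down, had 6.84 to 9.13 in the pooled rats with a median of 8.01, and 9.78, 9.49, 9.86 and 10.06 in the H rats, without overlap (1.89, standard error 0.38, limma adjusted p = 0.122). *Onecut1*, also called HNF6, had 9.5 to 11.69 in the pooled rats with a median of 10.37, and 8.79, 9.34, 7.20 and 8.14 in the H rats, again without overlap (-2.02, standard error 0.43, limma adjusted p = 0.136). Its second probe set had -2.03.

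Of the 16 genes of this list 4 had an unadjusted p under 0.05 on the higher side and 3 on the lower side, where 5.3 and 3.91% of all genes did. *Socs2*, a STAT5 target that damps the receptor, had 5.88 ± 0.57 (SD, n = 9) against 4.64 ± 0.59 (SD, n = 4), *Igfals* 10.20 ± 0.10 against 9.90 ± 0.16, and *Igfbp2* 5.25 ± 0.18 against 5.92 ± 0.62. *Cyp3a2* was higher in every H rat, at 13.52 to 13.59 against 13.24 to 13.46. *Serpina7*, the thyroxine carrier, had 1.12 and *Cish*, another STAT5 target, -1.05. *Igf1* itself had -0.13, and the male-typical *Cyp2c11* 0.09. *Cyp2c12*, typical of females, had SDs of 0.91 and 1.22 around a difference of 0.13.

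**Figure D3:**
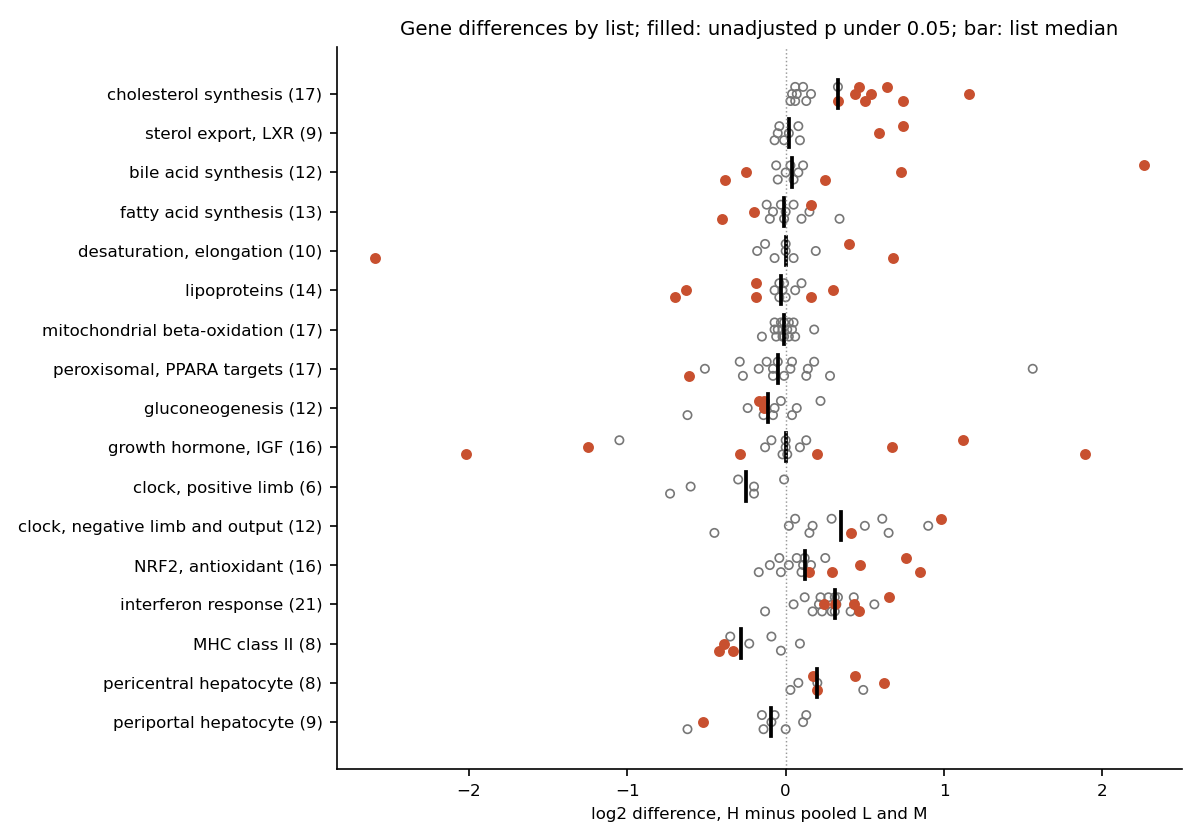
Log2 difference of each gene, H minus pooled L and M, for 17 of the 55 lists (number of measured genes in brackets), filled where the unadjusted limma p was under 0.05, with a bar at the list median. All 17 cholesterol synthesis genes lie above 0 with a median of 0.33, beta-oxidation genes lie within -0.15 and 0.18, and *Scd* and *Cyp7a1* are the outermost points at -2.59 and 2.26.

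In the clock genes, 3 pooled rats set much of the contrast. *Dbp*, an output of the clock, had 6.39, 6.38 and 6.25 in L1, L2 and M6 and 7.79 to 9.25 in the other 6 pooled rats, and the H rats had 8.51, 8.33, 9.05 and 9.13. *Bmal1*, of the positive limb, ran the other way, at 5.92, 5.79 and 5.87 in L1, L2 and M6, 3.79 to 4.93 in the other 6, and 3.82 to 4.34 in the H rats. The H rats therefore lay among L3 to L5, M8, M9 and M10, and apart from L1, L2 and M6.

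Over all 9 pooled rats, 11 of 12 genes of the negative limb and output had a higher mean in the H-group (median 0.35). This was so for 52.3% of all genes. On the higher side 2 had an unadjusted p under 0.05, beside 5.3% of all genes, and on the lower side 0. All 6 genes of a list named for the positive limb had a lower mean (median -0.25), and 0 had an unadjusted p under 0.05. That list holds *Bmal1*, *Clock*, *Npas2*, *Nfil3*, *Rora* and *Cry1*, of which *Nfil3* and *Cry1* are repressors. Without L1, L2 and M6 the medians were 0.14 and -0.14, and without L5, M9 and M10 they were 0.52 and -0.37. No clock gene passed the adjusted threshold. *Bhlhe41*, the repressor DEC2, came nearest, with 3.14 to 4.46 in the pooled rats and 5.08, 4.13, 4.62 and 5.0 in the H rats (0.98, standard error 0.23, limma adjusted p = 0.189), and it had 0.78 without L1, L2 and M6. H13 lay inside the range of the pooled rats. *Nr1d1* (0.41), *Per2* (0.61) and *Per3* (0.65) overlapped, and the related *Bhlhe40* had -0.45.

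An E-box, CACGTG, through which the positive limb acts, was sought in the genes with a promoter window. It was in 3 of 11 of the negative limb and output (*Tef*, *Bhlhe40* and *Bhlhe41*) and in 0 of 5 of the positive-limb list. Of all 27457 windows, 6.65% held it. At that share 0 of 5 is the likely outcome for any genes, so the search says nothing about the positive-limb list. The window of *Bhlhe41*, the clock gene with the smallest p, is shown with its E-box in capitals, which starts at base -48 from the start (chr4:180569306-180569605, - strand, GRCr8).
Bhlhe41: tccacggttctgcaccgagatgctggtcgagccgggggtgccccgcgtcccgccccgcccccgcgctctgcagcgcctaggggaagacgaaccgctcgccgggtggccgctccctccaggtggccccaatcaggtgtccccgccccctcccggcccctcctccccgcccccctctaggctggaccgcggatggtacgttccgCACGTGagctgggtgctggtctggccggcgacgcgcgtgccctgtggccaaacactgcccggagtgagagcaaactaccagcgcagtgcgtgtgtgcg

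**Figure D4:**
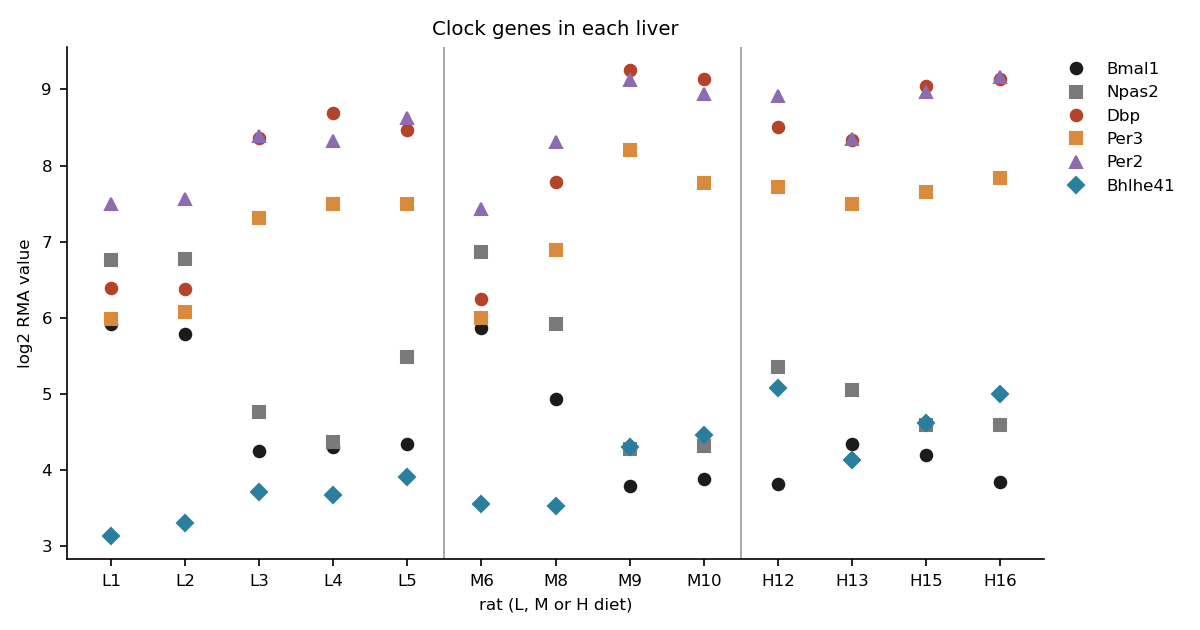
Log2 RMA values of 6 clock genes in each of the 13 livers, L rats left, M rats in the middle and H rats right. *Dbp*, *Per2* and *Per3* are low and *Bmal1* and *Npas2* high in L1, L2 and M6, and the 4 H rats resemble the remaining pooled rats, *Bhlhe41* having its 2 highest values in H12 and H16 (5.08 and 5.0).

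Of 16 NRF2 and antioxidant genes 12 were higher, where 52.3% of all genes were, and the median was 0.12. On the higher side 5 had an unadjusted p under 0.05, beside 5.3% of all genes, and 0 were called. *Gclc*, the rate-limiting enzyme of glutathione synthesis, had 9.25 to 9.78 in the pooled rats and 9.88, 9.68, 9.74 and 9.87 in the H rats (0.29, limma adjusted p = 0.295), and *Srxn1*, which repairs peroxiredoxins, 6.66 ± 0.24 (SD, n = 9) against 7.14 ± 0.26 (SD, n = 4). The other probe sets of *Srxn1* had differences of 0.03 and -0.00, with pooled means of 2.90 and 4.16, under the array medians. A second *Gclc* probe set had 0.18. *Nqo1* had 7.41 in H15, and 5.75, 5.78 and 6.11 in the other H rats, against 5.18 to 6.13.

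*Hspb1*, a small heat shock protein, had 5.29 to 6.46 in the pooled rats and 6.36, 6.79, 7.0 and 6.97 in the H rats, overlapping through L3 and H12 (0.97, standard error 0.18, limma adjusted p = 0.0861). The other 10 heat shock genes lay between -0.00 (*Dnajb1*) and 0.75 (*Hspa1a*), and none of them had an unadjusted p under 0.05. *Nr1i3*, the receptor CAR that senses xenobiotics, had 7.77, 8.65, 8.94 and 9.22 in the H rats against 7.53 to 8.38 (0.72, limma adjusted p = 0.338).

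In retinol metabolism, *Rdh16* had 7.0 ± 0.36 (SD, n = 9) against 7.81 ± 0.51 (SD, n = 4) and *Rdh10* 8.61 ± 0.05 against 8.44 ± 0.13. The second probe set of *Rdh10* had a difference of -0.01, with a pooled mean of 2.95, under the array medians. In amino acid metabolism, *Prodh*, which opens proline breakdown, had 7.91 to 8.45 in the pooled rats and 8.41, 8.69, 8.62 and 8.62 in the H rats (0.40, limma adjusted p = 0.175, and 0.04 with its second probe set), *Psph*, of serine synthesis, 0.30, and *Hal*, of histidine breakdown, -0.52. The second *Prodh* probe set also lay under the array medians, with a pooled mean of 4.15.

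The interferon response list depended on rat H15. Of 21 genes 20 had a higher mean in the H-group, where 52.3% of all genes did, and the median was 0.31. On the higher side 5 had an unadjusted p under 0.05, beside 5.3% of all genes. By rat, the mean deviation of the list was 0.92 in H15 and 0.40 in H12, but -0.17 in H13 and -0.33 in H16, against -0.23 to 0.20 in the pooled rats. Without H15 the median was -0.02, and without H16 it was 0.48. *Isg15*, a ubiquitin-like protein made on interferon, shows the pattern, with 9.41 in H15, 8.14, 7.59 and 6.94 in H12, H13 and H16, and 7.25 to 7.83 in the pooled rats. *Ifit2* was the gene of the list with the smallest p, at 7.44 to 8.27 against 8.25, 7.94, 8.50 and 8.35 (0.43, limma adjusted p = 0.369, and 0.41 with its second probe set).

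Of 8 genes of antigen presentation, mainly MHC class II, 7 had a lower mean in the H-group (median -0.28). Of all genes 52.3% had a higher one. On the lower side 3 had an unadjusted p under 0.05, beside 3.91% of all genes, and 0 were called. *Cd74* was at -0.39 and *RT1-Da* at -0.42. Rats M6 and M9 were highest in these genes (mean deviations 0.43 and 0.50), the H rats had -0.35 to 0.12, and the median was -0.19 without M9 and -0.41 without H12. *Lox*, which cross-links collagen, had 6.38 to 9.54 in the pooled rats and 9.46, 10.41, 9.53 and 10.34 in the H rats (1.86, standard error 0.57, limma adjusted p = 0.349). A second *Lox* probe set had 1.94, without overlap (limma adjusted p = 0.3). The 19 matrix genes had a median of -0.06.

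Zonation markers were set beside these results, as many lipid and P450 genes vary along the liver lobule. All 8 pericentral markers had a higher mean in the H-group, where 52.3% of all genes did. Their median was 0.20, which was 0.31 without H12 and 0.15 without H13 or without L1, L2 and M6. With an unadjusted p under 0.05 there were 4, beside 5.3% of all genes on the higher side, and 0 were called. These 4 were *Cyp2e1* (0.17), *Cyp1a2* (0.44), *Slc1a2* (0.62) and *Axin2* (0.20). Of 9 periportal markers 2 were higher and 7 lower (median -0.09), *Hal* at -0.52 the one with an unadjusted p under 0.05. The mean level of the pericentral list was 7.67 to 8.19 in the pooled rats and 7.91 to 8.39 in the H rats, and that of the periportal list 9.26 to 9.94 and 9.29 to 9.68, so both overlapped. *Glul*, the defining pericentral marker, had 9.99 ± 0.28 (SD, n = 9) against 10.19 ± 0.36 (SD, n = 4). The part of zonation in the differences above was not tested.

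Markers of other cells had small median differences. The median difference was 0.07 for 8 Kupffer cell markers, 0.05 for 8 endothelial, -0.02 for 10 stellate, 0.03 for 6 bile duct, 0.02 for 12 T and NK cell, -0.13 for 4 B cell and 0.08 for 5 neutrophil markers. No member was called, but of all 14217 genes only 3 were called higher and 2 lower. Of the Kupffer cell markers 7 had a higher mean, beside 52.3% of all genes, and 0 had an unadjusted p under 0.05. On the higher side 2 bile duct markers had such a p, beside 5.3% of all genes, and 0 on the lower side. The stellate, T and NK cell and neutrophil lists each had 1 such marker on the higher side and 0 on the lower. *Rgs5*, a pericyte marker among the stellate genes, had 5.51 ± 0.24 (SD, n = 9) against 5.88 ± 0.19 (SD, n = 4). The Kupffer list had a mean level of 7.75 to 8.39 in the pooled rats and 7.84 to 8.34 in the H rats. Their part in the results was not tested.

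**Figure D5:**
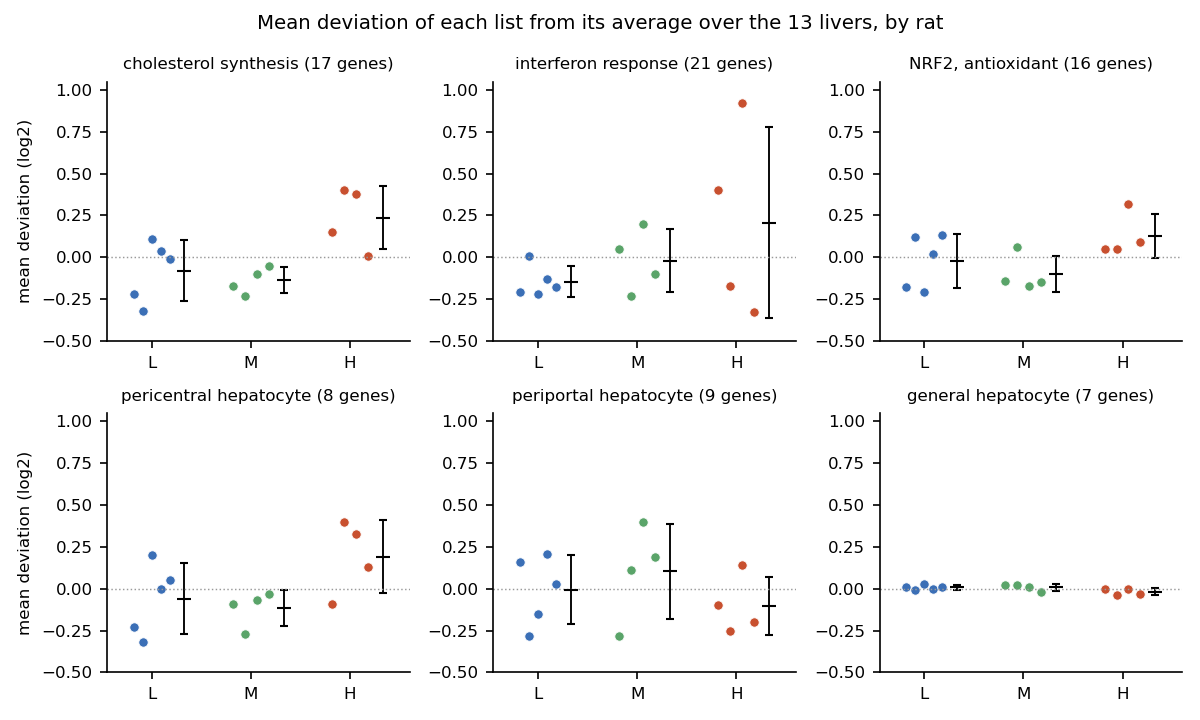
Mean deviation of 6 gene lists from their average over the 13 livers (log2), 1 point per rat in the L- (5), M- (4) and H-group (4), with mean and SD. Cholesterol synthesis is highest in H13 and H15 (0.40 and 0.38), the interferon list is at 0.92 in H15 and 0.40 in H12 but not above the pooled rats in H13 and H16, and the general hepatocyte list stays within -0.04 and 0.03.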

How the data were processed

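RNA of 13 livers was hybridized to Affymetrix rat expression arrays with 1 colour, and the authors deposited log2 values made with RMA, which corrects background, quantile normalizes the arrays and summarises each probe set. They were used as deposited, since no further scaling was stated. RNA input was one of 2 amounts, and which rat had which is not given in the sources used here. Of 31099 probe sets 57 controls were left out. Of the other 31042, 20826 carry 1 gene symbol, 436 several and 9780 none. The 4 H rats were compared with the 9 L and M rats by limma 3.58.1 in R 4.3.3 (lmFit and eBayes, two-sided, Benjamini-Hochberg over all 31042 probe sets, threshold 0.05), and single values by exact permutation. A gene list takes the brightest probe set of each gene, and its deviation in a rat is the mean over genes of the value minus the gene's mean over the 13 livers. Lists are described by counts and medians with no test. For 54.3% of the probe sets the mean is under 5, near the array medians, where small changes are hard to see, and precision is limited by the number of arrays. Nothing says whether rats shared a cage or hybridization day.

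Genes were named by a rule. It takes called genes with a group mean of at least 5, filled up to 5 per direction by the smallest p, and up to 2 genes per list with an unadjusted p under 0.01. Other members of the lists were named after their values were seen, as context for their list. The rule, the lists and the comparison were chosen with earlier results of these data known. Alternatives were another spread model, array weights, further scaling, filters, single diets, left-out rats and rank products (100 permutations), and the steps were tested on simulated data. Python 3.11.15 with pandas 2.3.3 was used for tables. Leaving out L1, L2 and M6 was chosen after seeing the data. Promoter windows are those of RefSeq (GRCr8), found for 33 of 47 named genes.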

Additional observations from a re-analysis of the deposited data

Results flagged for a closer look

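Of 212 groups of 4 or 9 rats that were examined, 10 held 1 rat far from its group, and chance alone sets apart about 1 in 20 groups. Rat H13 had the lowest *Slc39a4* of the H rats, at 6.38 against 6.74 to 6.82. Rat M10 had the highest *Slc25a30* of the pooled rats, at 11.77 against 10.35 to 11.04. Rat L2 had the lowest *Abcg5* of the pooled rats, at 6.53 against 7.25 to 7.79, and its growth hormone and IGF list deviated by 0.36 against -0.19 to 0.09. Rat H15 had the highest *Pdk1* of the H rats, at 8.01 against 7.46 to 7.48, and its NRF2 and antioxidant list deviated by 0.32 against 0.05 to 0.09. The mean deviation of the fatty acid synthesis list was 0.16 in L5 against -0.07 to 0.04 in the other pooled rats. That of the cAMP signalling list was 0.11 in M9 against -0.01 to 0.04. Among the H rats, the glycolysis list deviated by 0.05 in H13 against -0.02 to -0.01, and the list of pyruvate dehydrogenase and TCA cycle genes by -0.01 in H16 against 0.04 in the others.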

How the results depend on the processing

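The 8 calls (6 higher, 2 lower in the H-group) moved with the test, the threshold and the rats in the fit. Leaving out 1 rat gave 3 to 15 calls, 2 to 13 of them higher and 1 to 4 lower, and 2 to 8 of the 8 were kept. Counts moved by over 1.5 times without L1, L4 or L5 (5 calls each), M9 (15), H15 (13) or H16 (3), and the higher count also without M10 (3). Without L5, M9 and M10 there were 27 calls (21 higher, 6 lower) with 7 of the 8 kept, and without L1, L2 and M6 there were 4 (3 higher, 1 lower). Rats L5, M9 and M10 had the lowest array weights of the 13 (0.80, 0.56 and 0.81), so leaving them out is no neutral choice. H against L alone gave 2 higher and 4 lower calls. H against M alone gave 0 (0 higher, 0 lower) by limma, where 1684 probe sets had an unadjusted p under 0.05 and rank products called 136 higher and 95 lower. Testing the brighter probe sets alone, those over the median level, gave 3 calls (1 higher), and the 3-group fit 4 lower. An adjusted p under 0.01 gave 2 calls (1 higher, 1 lower) and under 0.10 gave 40 (23 higher, 17 lower). Rank products over the 36 H to L or M ratios, which share arrays, called 716 probe sets (204 higher, 512 lower), with 7 of the 8 and 35 of the 48 named probe sets among them. Trended and robust moderation, array weights, median centring and cyclic loess gave 7 or 8 calls. Over the 48 named probe sets, 1243 alternatives kept every direction, with 40 calls lost and 39 gained. Rank products, exact permutation, the other spread model and the level filter leave the difference unchanged, so they could not reverse a direction. The 48 were also picked by their p in these data, so the kept directions support nothing. Of 1259 list medians, 1247 moved by less than the spread between pooled rats. The exact permutation test adjusted over all probe sets could not pass, its smallest adjusted p being 0.326. No paired analysis was possible because the diet groups hold different rats and share no rat numbers. The cause of these changes was not tested.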

Other observations

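The unfolded protein response list, not described above, had 14 of 15 genes with a higher mean in the H-group (median 0.15), beside 52.3% of all genes. On each side 1 had an unadjusted p under 0.05, beside 5.3% of all genes on the higher and 3.91% on the lower side. Among the 14 were the chaperones *Calr* (0.20) and *Manf* (0.23). *Xbp1*, its transcription factor, was the exception at -0.24. Its deviation was 0.37 in both L2 and H12, and single rats left out gave medians of 0.08 (without H12) to 0.21 (without H16). Of 19 genes of the ATF4 amino acid response, 4 on the higher and 2 on the lower side had an unadjusted p under 0.05. Of all genes 5.3 and 3.91% did. *Psat1* was at 0.51 and *Atf4* itself at -0.31. In lipid storage, *Plin3* had -0.51, *Dgat2*, the last step of triacylglycerol synthesis, 0.25, and *Lpin2* 0.69. None of these genes passed the adjusted threshold. The lists of ketogenesis (3 genes, median 0.02), glycolysis (12, -0.04), oxidative phosphorylation (17, 0.02), insulin signalling (14, -0.07), glycogen (7, -0.02), cell cycle (18, -0.04), acute phase (17, 0.00), phase II conjugation (15, 0.02) and skeletal muscle (10, 0.01) had medians close to the 0.00 of all genes.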
